A study of Mus musculus with 8 samples.

Results

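Potassium channel genes, meaning every gene whose symbol starts with Kcn, were examined in upper-layer cortex (layers II-IV) taken from mice at postnatal day 5. They were chosen by symbol, with earlier results of these data known. Where a gene had more than 1 probe set the one with the highest mean over 8 arrays was kept. This gave 92 of the 19938 genes tested, of which 88 encode channel subunits and 4 do not (3 antisense transcripts and the regulator Kcnrg). The 4 control pups carried floxed Bcl6 on both alleles (Bcl6 flox/flox) and no Cre at the Nex locus (Nex +/+), and the 4 mutant pups carried the same floxed alleles with Cre on 1 Nex allele (Nex Cre/+). Nex is another name of Neurod6, which excitatory cortical neurons switch on once they stop dividing. By this design Cre is made in those neurons, and other cells of the tissue should keep Bcl6. Every mutant and no control carried Cre at Nex. An effect of Bcl6 loss thus cannot be told apart from one of Cre or of the altered Nex allele. Tissue was laser-microdissected and RNA from each pup was hybridised to its own Affymetrix Mouse Gene 1.0 ST array. Values are log2 signals, differences are mutant minus control on that scale, and the spread within a group mixes variation among pups with technical variation.

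Potassium channels let potassium leave or enter the cell and so set the resting potential, the shape of the action potential and the rate of firing. A channel is built of pore-forming alpha subunits, often with auxiliary subunits that alter its gating or its transport to the membrane. The family falls into voltage-gated channels (Kcna to Kcnd, Kcnh, Kcnq, with silent partners Kcnf, Kcng, Kcns and Kcnv), calcium- or sodium-activated channels (Kcnma, Kcnn, Kcnt), inward rectifiers (Kcnj) and tandem-pore leak channels (Kcnk). In the cortex of young pups these channels are still changing, and neurons move towards faster and more regular firing as the set matures.

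The targeted gene Bcl6 read higher, not lower, in every array labelled mutant than in every control (limma unadjusted p = 0.002; adjusted p = 0.655). The 4 controls averaged 6.40 ± 0.185 (SD) and the 4 mutants 6.78 ± 0.14. Where its probes lie relative to the deleted part was not known, and the cause of the higher signal was not tested. Neither the deletion nor the labels could thus be checked by it. "Mutant" is therefore used for arrays by their label. Neurod6, whose allele carries Cre, read 9.22 ± 0.13 (SD) in controls and 8.83 ± 0.17 in mutants, with every mutant below every control (limma adjusted p = 0.535). Xist stood at 9.78 and 9.76 in mutants 1 and 4 but at 2.64 to 3.41 elsewhere, so that sex is not balanced between the groups. The mean level of 6 markers of layers II-IV was 9.06 to 9.57 in controls and 9.29 to 9.54 in mutants. It was lowest in replicate 4 of each group. The mean level of the layer V-VI list was at most 6.05 in controls and 6.10 to 6.26 in mutants, without overlap. Of its 6 genes 2 were at an unadjusted p under 0.05 in limma, where 4.91% of all genes were. These were Ldb2 (0.80 ± 0.15, SE) and Crym (-0.22 ± 0.10). Ldb2 was the only gene of the list whose groups did not overlap. Fezf2, Bcl11b, Tle4 and Foxp2 differed by 0.30 ± 0.17, 0.09 ± 0.06, 0.03 ± 0.07 and -0.125 ± 0.081. The list thus held differences of both signs. Of 5 excitatory neuron markers 2 were at that p, Neurod6 and Tbr1 (0.17 ± 0.065, SE, with every mutant above every control), and the list's mean level was 8.38 to 8.54 in controls and 8.33 to 8.44 in mutants. The part of these shifts in the differences below was not tested.

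Because Bcl6 encodes a repressor that binds DNA, the start regions of the family were read from RefSeq (GRCm38.p6), where 70 of the 92 genes had at least 1 window of 300 bases, from 250 before to 50 after a start. The core letters bound by BCL6, TTCCTAGAA, were found on either strand in 1 of 95 Kcn windows (1.05%) and in 0.411% of all 32851 windows. That 1 window belongs to Kcnk4, a mechanosensitive tandem-pore channel gene, which was picked for printing after the match was seen. The looser palindrome TTCNNNGAA, which STAT factors also bind and which overlaps the core, was in 8.42% of Kcn windows and in 8.30% of all. The GC box GGGCGG was in 47.4% of Kcn windows against 35.7%, and the TATA box TATAAA in 5.26% against 13.6%. The median GC content was 58.0% in Kcn windows and 52.7% in all. The 250 bases before the start are shown for Kcnk4 because of the core match, and for Kcnk5 and Kcnh8 because their differences between genotypes were the widest in the family in either direction. Capitals mark the BCL6 core and GC boxes.
Kcnk4 (chr19:6934516-6934765, minus strand): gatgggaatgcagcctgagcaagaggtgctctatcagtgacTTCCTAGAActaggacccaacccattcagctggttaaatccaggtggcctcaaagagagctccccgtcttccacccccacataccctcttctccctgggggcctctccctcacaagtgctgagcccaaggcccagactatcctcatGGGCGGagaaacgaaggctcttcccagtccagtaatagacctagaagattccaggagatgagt
Kcnk5 (chr14:20181783-20182032, minus strand): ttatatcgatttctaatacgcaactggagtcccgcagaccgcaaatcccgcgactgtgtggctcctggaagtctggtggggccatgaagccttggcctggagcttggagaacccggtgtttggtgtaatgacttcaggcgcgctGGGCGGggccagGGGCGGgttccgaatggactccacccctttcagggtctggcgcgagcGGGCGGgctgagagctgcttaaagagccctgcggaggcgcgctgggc
Kcnh8 (chr17:52602459-52602708, plus strand): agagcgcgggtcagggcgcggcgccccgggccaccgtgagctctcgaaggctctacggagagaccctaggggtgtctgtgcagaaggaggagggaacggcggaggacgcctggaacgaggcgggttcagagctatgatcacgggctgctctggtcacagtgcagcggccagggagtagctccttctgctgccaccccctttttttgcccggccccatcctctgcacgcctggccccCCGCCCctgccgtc
In the Kcnk4 window the core starts 209 bases before the start of the gene and 1 GC box starts 63 before it. The Kcnk5 window holds 3 GC boxes and the Kcnh8 window 1, on the opposite strand, and neither holds the core. A match of letters is a description and shows no binding.

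The comparison of mutant with control arrays asked which potassium channel transcripts depend on the genotype at Nex in floxed Bcl6 pups. None of the 92 genes passed limma's test over all genes (adjusted p of at least 0.713), against 13 of 19938 genes or 0.0652% in the background (0.0502% higher and 0.015% lower in mutants). At an unadjusted p under 0.05 there were 8 Kcn genes, or 8.70%, where all genes gave 4.91%. Of these, 3 read higher in mutants (3.26% of the family; 1.64% of all genes), namely Kcnh8, Kcnq3 and Kcnk2. Another 5 read lower (5.43%; 3.28% of all genes), namely Kcng1, Kcnk5, Kcna5, Kcns3 and the antisense transcript Kcnd3os. The split of 3 higher and 5 lower became 4 and 3 under median centring and under cyclic loess, 1 and 6 with the level of Y-linked genes as a covariate, and 1 and 4 without mutant replicates 1 and 4. Among the 59 Kcn genes above the median level of all genes 6 were at that p (10.2%; 2.76% of all genes above it), and among the 33 below it 2 were (6.06%; 7.06% of all genes below it). The level was the mean over all 8 arrays, mutants included. Kcnh8 stood above it only through its mutants, since its control mean of 5.41 lay under 5.56, the median of all genes in controls. The share of 10.2% thus draws in part on the differences themselves.

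Differences in the family were small and their bounds narrow. They lay between -0.32 and 0.33, and 64 of the 92 were under 0.1 in size while 8 were at least 0.2. The median difference was -0.018, beside -0.0096 over all genes, and 57 of 92 were negative (62.0%; 55.4% of all genes). For 88 of the 92 genes (95.7%; 98.2% of all genes) the 95% interval lay inside -0.5 to 0.5, which is a change of less than 1.41-fold either way. The 4 exceptions were Kcnh8, Kcnq3, Kcnk5 and Kcnk12, whose intervals reached 0.56, 0.54, -0.53 and -0.52. The 88 include 32 of the 33 Kcn genes below the median level of all genes. The intervals bound the change in array signal, which at a dim probe set may not bound the change in transcript.

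**Figure D1:**
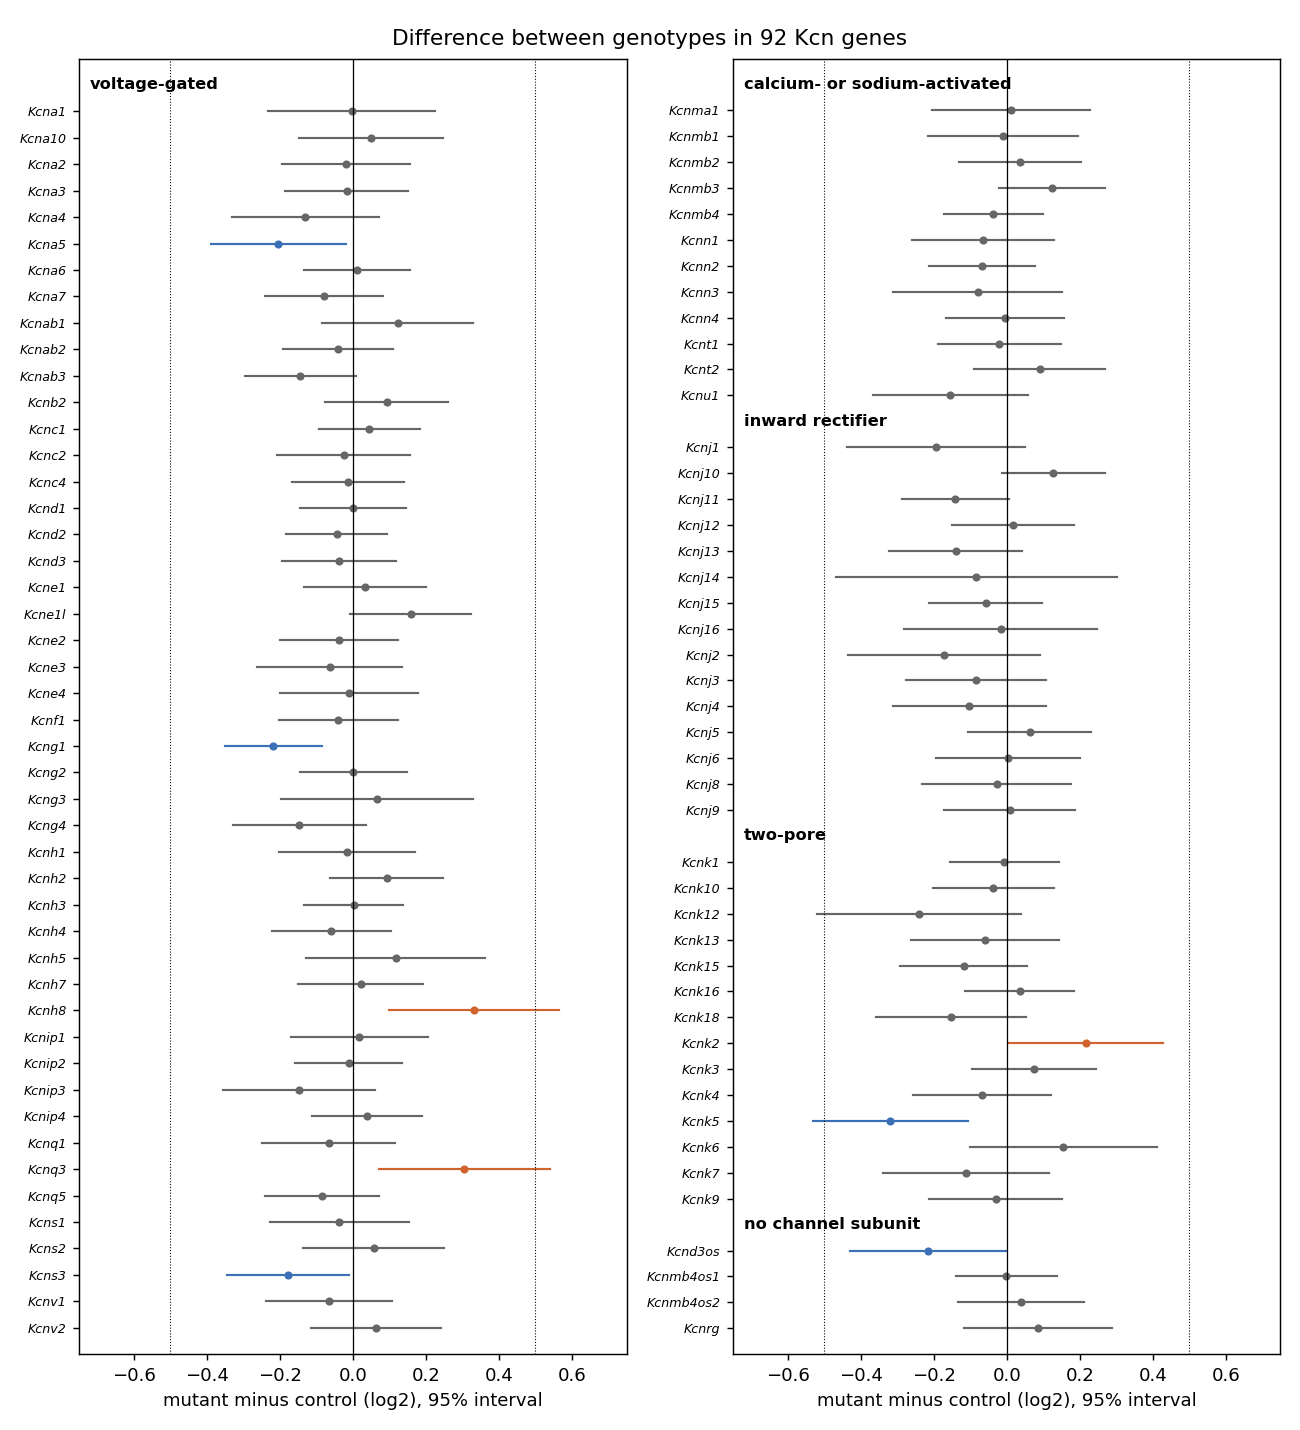
Log2 difference, mutant less control (x axis), and its 95% interval for each of the 92 Kcn genes (y axis), by class; orange and blue mark genes read higher or lower at an unadjusted p under 0.05, and dotted lines stand at -0.5 and 0.5. All but 4 intervals lie between the dotted lines, and Kcnh8 and Kcnk5 are the farthest from 0.

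Kcnh8, an ether-a-go-go type subunit of the ELK branch, had the widest difference in the family. Controls 1 to 4 read 5.36, 5.74, 5.31 and 5.24, while mutants 1 to 4 read 5.79, 5.86, 5.77 and 5.54. Control replicate 2 lay within the mutant range and the other 3 controls below it, so that the groups overlap. The difference was 0.33 ± 0.11 (SE, n = 4 per group), or 1.26-fold, with an unadjusted p of 0.0092 and a limma adjusted p of 0.893. A further probe set of Kcnh8 gave a difference of 0.245 ± 0.116, from 4.95 in controls to 5.20 in mutants.

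Kcnq3 forms the M-channel, a brake on repetitive firing, together with other KCNQ subunits. Its control values were 9.17, 9.41, 9.15 and 8.82 and its mutant values 9.57, 9.37, 9.48 and 9.36. Again control replicate 2 lay among the mutants, and control replicate 4 stood lowest of all arrays. The difference was 0.31 ± 0.11 (SE), or 1.24-fold (unadjusted p = 0.0145; limma adjusted p = 0.923), and without control replicate 4 it was 0.199 ± 0.088 (unadjusted p = 0.0436). The other KCNQ genes tested did not read higher: Kcnq5, also a neuronal M-channel subunit, was 10.09 ± 0.10 (SD) in controls and 10.01 ± 0.08 in mutants. Kcnq1, best known from heart and inner ear and named here outside the rule after its value was seen, gave -0.07 ± 0.08 (SE).

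Kcnk2 encodes a TREK leak channel, opened by stretch, heat and lipids. Control replicates read 7.47, 7.78, 7.26 and 7.41, and mutant replicates 7.76, 7.64, 7.76 and 7.63. Control replicate 2 was the highest of all 8 arrays, and the other controls lay below every mutant. The difference was 0.22 ± 0.10 (SE), or 1.16-fold (unadjusted p = 0.0442; limma adjusted p = 1.00). In all 3 genes that read higher, control replicate 2 was the highest control, and without that array the differences were 0.439 ± 0.085 for Kcnh8, 0.40 ± 0.10 for Kcnq3 and 0.32 ± 0.08 for Kcnk2. Their limma adjusted p was then 0.245, 0.499 and 0.499. That array was picked for its high values in these genes, so that leaving it out could only widen the differences. Leaving out other arrays took Kcnh8 down to 0.27 ± 0.11 (without control replicate 4) and Kcnk2 to 0.146 ± 0.095 (without control replicate 3, unadjusted p = 0.15).

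Kcng1, a silent subunit that forms no channel alone and modifies Kv2 channels, had the smallest p of the family. It read 6.67, 6.54, 6.60 and 6.66 in controls and 6.37, 6.38, 6.45 and 6.41 in mutants. Every mutant lay below every control, with an SD of 0.06 in controls and 0.03 in mutants. The difference was -0.22 ± 0.06 (SE), so that controls held 1.16-fold more (unadjusted p = 0.00388; limma adjusted p = 0.713). In the 8 fits that left out 1 array it stayed between -0.24 and -0.20.

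Kcnk5 encodes a tandem-pore channel opened by alkaline pH, and its probe set was dim. Control replicates read 4.07, 3.93, 4.45 and 4.13 and mutant replicates 3.91, 3.77, 3.82 and 3.80. The groups did not overlap, with control replicate 2 only just above mutant replicate 1 and control replicate 3 well above the rest. The difference was -0.32 ± 0.10 (SE), or 1.25-fold more in controls (unadjusted p = 0.00664; limma adjusted p = 0.827), and -0.216 ± 0.077 without control replicate 3.

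Of the other genes that read lower, Kcna5, a Kv1 subunit known from heart and immune cells, was dim as well. Its controls read 3.998, 3.90, 4.12 and 4.20 and its mutants 3.92, 3.99, 3.77 and 3.72, so that the groups overlapped. The difference was -0.20 ± 0.08 (SE; unadjusted p = 0.0323; limma adjusted p = 0.988). Kcns3 is a silent subunit enriched in fast-spiking interneurons and works, like Kcng1, with Kv2 channels. Its controls read 5.93, 5.999, 5.82 and 5.97 and its mutants 5.68, 5.64, 5.75 and 5.92, with mutant replicate 4 among the controls. The difference was -0.18 ± 0.08 (SE; unadjusted p = 0.0378; limma adjusted p = 0.990).

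Kcnd3os is transcribed against Kcnd3, the gene of a Kv4 subunit that carries fast A-type current. It read 6.37, 6.06, 5.99 and 5.999 in controls and 5.67, 5.96, 5.96 and 5.97 in mutants. The groups did not overlap, but 3 arrays of each lay within 5.96 to 6.06 and the distance came from control replicate 1 and mutant replicate 1. The difference was -0.215 ± 0.099 (SE; unadjusted p = 0.0494; limma adjusted p = 1.00). It was -0.127 ± 0.087 without control replicate 1 and -0.141 ± 0.094 without mutant replicate 1. Kcnd3 itself read 6.44 in control replicate 1, its lowest array, and 6.56 to 6.70 in the other 7.

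**Figure D2:**
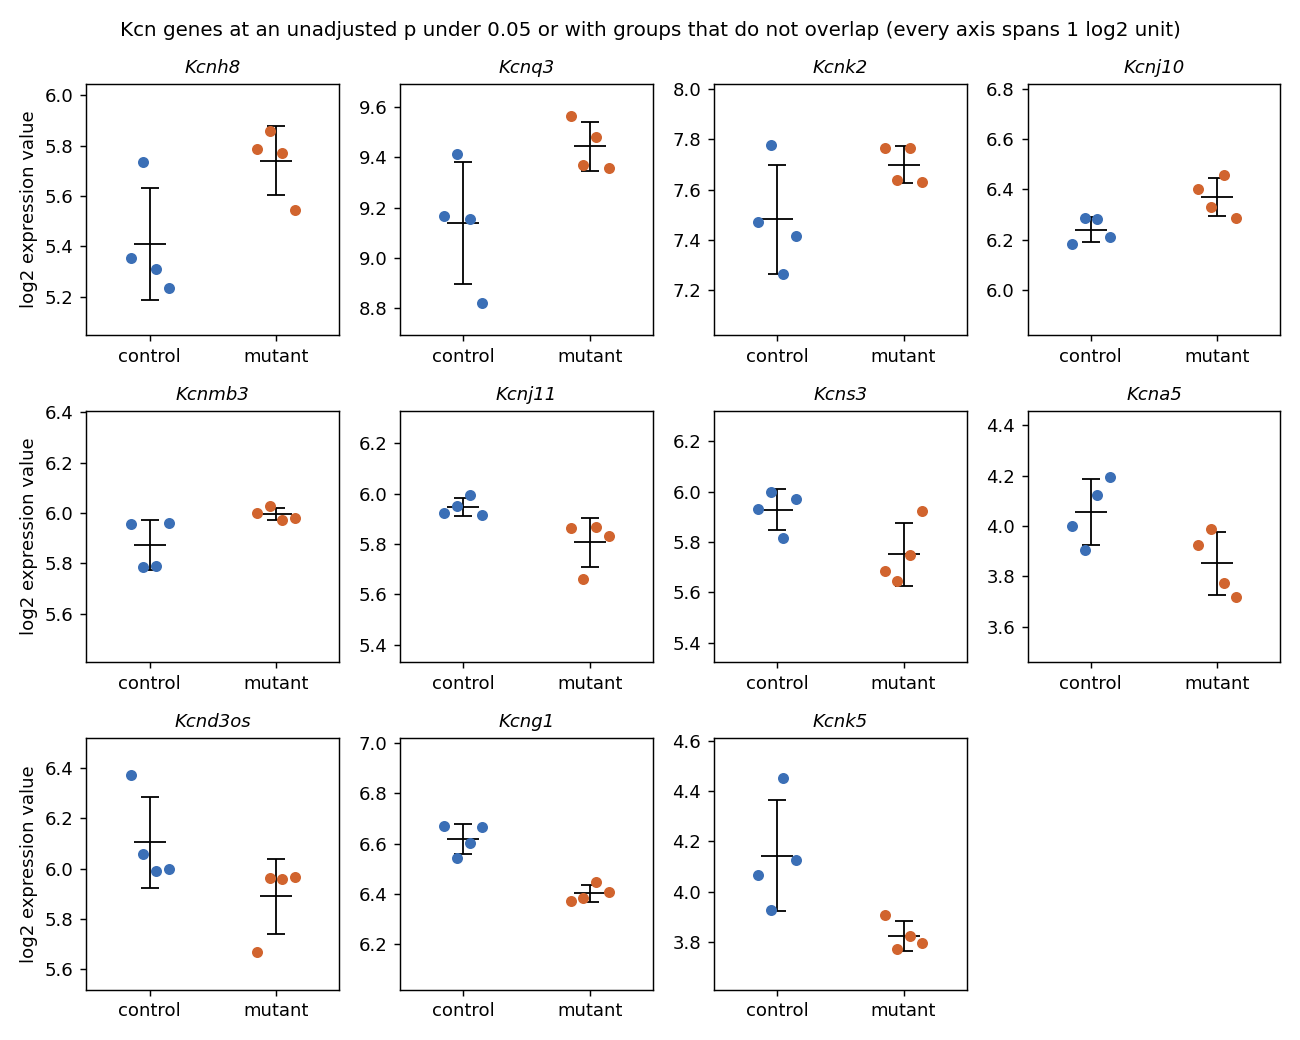
Log2 expression values (y axis) of the 8 Kcn genes at an unadjusted p under 0.05 and of Kcnj10, Kcnmb3 and Kcnj11, each point 1 array and the 2 groups of 4 side by side (x axis, replicates in numerical order) and bars for the mean and SD; every y axis spans 1 log2 unit. In Kcnh8, Kcnq3 and Kcnk2 control replicate 2 sits with the mutants, while in Kcng1 the 4 mutants lie below the 4 controls.

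The control and mutant values did not overlap in 6 Kcn genes (6.52%; 2.75% of all genes), 2 of them higher in mutants (2.17%; 0.963% of all genes) and 4 lower (4.35%; 1.79% of all genes). Beside Kcng1, Kcnk5 and Kcnd3os these were Kcnj11, Kcnj10 and Kcnmb3, all at an unadjusted p above 0.05. Kcnj11, the pore of ATP-sensitive potassium channels, read 5.92, 5.95, 5.996 and 5.91 in controls and 5.86, 5.66, 5.87 and 5.83 in mutants (-0.14 ± 0.07, SE), and its difference was -0.093 ± 0.064 without mutant replicate 2. Abcc8 and Abcc9, which encode the sulfonylurea receptors that complete those channels, differed by -0.06 ± 0.07 and 0.13 ± 0.11. Kcnmb3, an auxiliary subunit of BK channels, read 5.96, 5.78, 5.79 and 5.96 in controls and 6.001, 6.03, 5.97 and 5.98 in mutants (0.12 ± 0.07). All 4 mutants lay closely together in that gene, just above the upper controls.

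Kcnj10 forms the main inward rectifier of astrocytes, which clears potassium from around neurons. It read 6.18, 6.28, 6.28 and 6.21 in controls and 6.40, 6.33, 6.46 and 6.28 in mutants, and the groups were apart by only 0.001 (6.284 in control replicate 2 and 6.285 in mutant replicate 4). The difference was 0.13 ± 0.06 (SE; unadjusted p = 0.0724; limma adjusted p = 1.00). Kcnj16, its partner in astrocytes, read 5.24 ± 0.27 (SD, n = 4) and 5.23 ± 0.16. All 8 astrocyte markers had a positive difference (median 0.0495) and 0 were at an unadjusted p under 0.05 in limma. The mean level of that list was 7.86 to 7.99 in controls and 7.81 to 8.04 in mutants, and its part in the Kcnj10 difference was not tested. In such bulk tissue fewer cells of a type and less RNA per cell cannot be told apart.

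Among the other voltage-gated alpha subunits no gene was at an unadjusted p under 0.05 in limma apart from those described. The 15 subunits of Kv1 to Kv4 had a median of -0.0175, with 5 positive and 10 negative differences. Kcnb2, a Kv2 subunit of sustained delayed rectifier current, read 7.85 ± 0.14 (SD, n = 4) in controls and 7.94 ± 0.05 in mutants. Kcnd2, the Kv4 subunit of dendritic A-type current, read 9.90 ± 0.05 and 9.86 ± 0.07. Kcnc1 and Kcnc2, Kv3 subunits that let interneurons fire fast, differed by 0.05 ± 0.06 and -0.03 ± 0.08 (SE). Of the 9 interneuron markers 0 were at an unadjusted p under 0.05, and their mean level was 6.91 to 7.15 in controls and 6.99 to 7.11 in mutants. Kcna1 and Kcna2, axonal Kv1 subunits, differed by -0.003 ± 0.105 and -0.02 ± 0.08, and the other Kcna2 probe set by 0.04 ± 0.09.

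No other ether-a-go-go gene was at an unadjusted p under 0.05 in limma. Kcnh5 read 9.03 in control replicate 4 and 9.37 to 9.65 in the other 7 arrays, for a difference of 0.12 ± 0.11 (SE), which was -0.009 ± 0.081 without that array. Kcnh7, an ERG-type subunit, read 8.71 ± 0.12 (SD) and 8.73 ± 0.10. The 7 Kcnh genes spanned -0.06 to 0.33, with 5 positive when all arrays are used, and Kcnh1 and Kcnh3, named after their values were seen, differed by -0.02 ± 0.09 and 0.002 ± 0.062. The 10 silent subunits had a median of -0.0385, with Kcng1 and Kcns3 (2 of 10) lower at an unadjusted p under 0.05, where 3.28% of all genes were. Kcnf1 and Kcnv1 differed by -0.04 ± 0.08 and -0.06 ± 0.08.

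Auxiliary subunits in the family numbered 16, with a median of -0.0105, and 0 were at an unadjusted p under 0.05 in limma. Kcnab3, a beta subunit of Kv1 channels, read 5.83 ± 0.10 (SD, n = 4) in controls and 5.68 ± 0.07 in mutants, a difference of -0.145 ± 0.070 (SE). Kcne1l, an X-linked member of the KCNE subunits, differed by 0.16 ± 0.08, with mutant replicate 3 at 5.62 and the other 7 arrays between 5.23 and 5.435, and by 0.095 ± 0.070 without that array. Kcnip3, a calcium-binding partner of Kv4 channels, read 8.87 to 9.28 in controls and 8.91 to 9.02 in mutants, a difference of -0.15 ± 0.10 that was -0.085 ± 0.096 without control replicate 4. Kcnip4, of the same group, differed by 0.04 ± 0.07.

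Calcium- or sodium-activated channel genes had a median difference of -0.015 over 12 genes and a range of -0.15 to 0.12. None of the 12 was at an unadjusted p under 0.05 in limma, a count too small to set apart from the 4.91% of all genes, which holds also for the counts of 0 in the other groups of this size. Kcnma1, the alpha subunit of the large-conductance BK channel, read 9.07 ± 0.21 (SD, n = 4) and 9.08 ± 0.10. All 4 Kcnn genes, which encode small and intermediate conductance channels of the afterhyperpolarization, had negative differences of -0.08 to -0.003. Kcnn2 was the one of smallest p there, at -0.07 ± 0.07 (SE). The sodium-activated Kcnt1 and Kcnt2 differed by -0.02 ± 0.08 and 0.09 ± 0.08. Kcnu1, a gene of sperm, was dim at 3.73 ± 0.19 and 3.57 ± 0.12, and its difference of -0.15 ± 0.10 was -0.079 ± 0.092 without control replicate 4.

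Inward rectifiers had a median of -0.058 over 15 genes, 10 of them negative, and 0 at an unadjusted p under 0.05 in limma. Kcnj3 and Kcnj6 encode channels opened by G proteins, through which GABA-B and other receptors quiet neurons. Kcnj3 read 7.85 ± 0.16 (SD, n = 4) in controls and 7.76 ± 0.11 in mutants, and Kcnj6 read 5.68 ± 0.19 and 5.68 ± 0.06. Kcnj8, the pore subunit of pericyte channels, differed by -0.03 ± 0.09 (SE). The 6 mural markers, which include Abcc9 and of which 2 were positive, gave 0 at an unadjusted p under 0.05, with mean levels of 6.20 to 6.31 in controls and 6.02 to 6.38 in mutants. The tandem-pore genes had a median of -0.047 over 14 genes, and Kcnk9, an acid-sensitive leak channel of neurons, differed by -0.03 ± 0.08. Kcnk12, a tandem-pore subunit that passes little current alone, was chosen for mention after its values were seen. Mutants 1 and 2 read 5.26 and 5.50, and the remaining 6 arrays 5.77 to 5.999. Kcnk4, whose window held the BCL6 core, read 6.41 ± 0.14 (SD) and 6.34 ± 0.13, a difference of -0.07 ± 0.09 (SE).

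**Figure D3:**
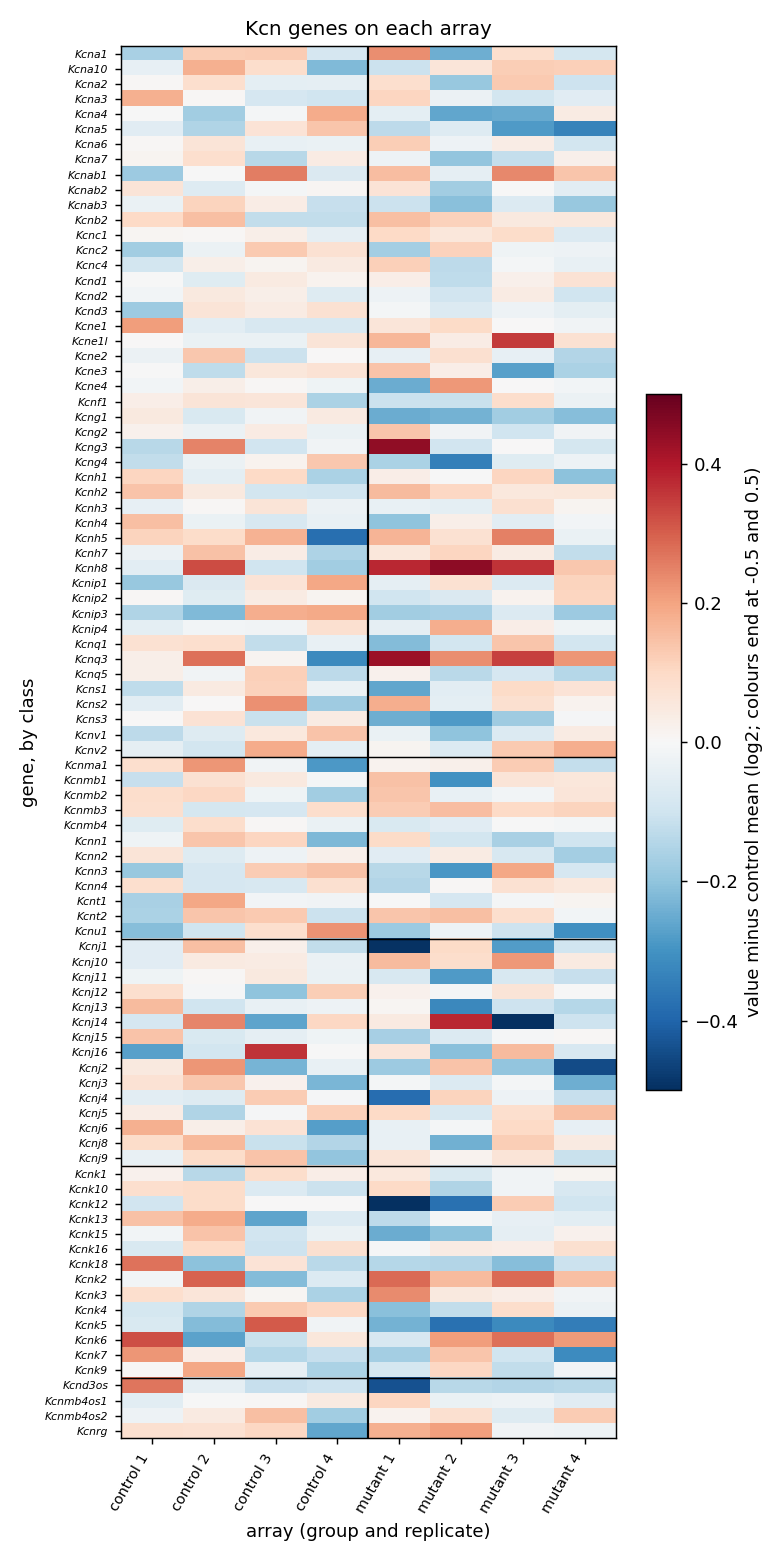
Value of each of the 92 Kcn genes (rows, by class) on each of the 8 arrays (columns) as its distance from the control mean (colour, log2). Most cells are pale, and the rows of Kcnh8, Kcnq3 and Kcnk2 are red in all 4 mutants and in control replicate 2.

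Arrays differed in how often they held the extreme value of a Kcn gene. Control replicate 4 was the lowest of the 8 arrays in 19 of 92 genes (20.7%; 14.8% of all genes), and mutant replicate 2 also in 19 (20.7%; 17.0% of all genes). Control replicate 2 was the highest in 21 (22.8%; 19.2% of all genes). Mutant replicate 4 was the highest in 3 (3.26%; 9.62% of all genes). Control replicate 3 was the highest in 14 (15.2%; 9.05% of all genes) and the lowest in 5 (5.43%; 11.5% of all genes). Mutant replicate 3 was the lowest in 4 (4.35%; 11.7% of all genes) and the highest in 10 (10.9%; 9.43% of all genes). The median distance of the family from its control means was -0.033 to 0.030 in the 4 controls and between -0.040 and 0 in the 4 mutants.

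Genes that act with these channels were taken from lists of other symbols. Of 9 auxiliary subunits outside the family, such as Dpp6 and Dpp10 of Kv4 channels, 0 were at an unadjusted p under 0.05 in limma and the median was -0.032. Dpp6 read 8.69 ± 0.03 (SD, n = 4) in controls and 8.66 ± 0.04 in mutants, and Dpp10 9.19 ± 0.09 and 9.25 ± 0.04. The same count of 0 was found for 16 clustering and anchoring proteins (median -0.021), 14 G protein partners of inward rectifiers (-0.019), 5 HCN and lysosomal cation channels (0.010) and 10 potassium pumps and transporters (-0.038). Slc12a5, the potassium-chloride cotransporter that makes GABA inhibitory as neurons mature, differed by -0.05 ± 0.10 (SE).

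The directions of the 8 genes at an unadjusted p under 0.05 were also followed through refits. All 8 kept their sign in every alternative that held them. They were chosen at that p on the same arrays, which the refits reuse, so that kept signs are no independent check. With 1 array left out, Kcng1, Kcnk5, Kcnh8 and Kcnq3 had an unadjusted p under 0.05 in all 8 fits, Kcna5 in 4, and Kcnk2, Kcns3 and Kcnd3os in 2 each. With the level of Y-linked genes as a covariate, the differences were 0.41 ± 0.13 (SE) for Kcnh8, 0.29 ± 0.14 for Kcnq3 and 0.22 ± 0.12 for Kcnk2, of which Kcnh8 alone had an unadjusted p under 0.05. Of the lower genes Kcng1 (-0.21 ± 0.08), Kcnk5 (-0.35 ± 0.12) and Kcns3 (-0.23 ± 0.09) kept an unadjusted p under 0.05, while Kcna5 (-0.17 ± 0.11) and Kcnd3os (-0.150 ± 0.120) did not, at limma unadjusted p of 0.132 and 0.239. Xist was low in every control, so that the covariate fit rests mostly on mutant replicates 2 and 3 against the controls. Leaving out mutant replicates 1 and 4, the pups with high Xist, is nearly the same comparison and no separate check. The differences of Kcnh8, Kcnq3 and Kcnk2 were then 0.405 ± 0.130, 0.29 ± 0.14 and 0.22 ± 0.13, and only Kcnh8 of these 3 had such a p. Kcng1, Kcnk5 and Kcns3 had one as well, and Kcna5 (-0.175 ± 0.105) and Kcnd3os (-0.143 ± 0.113) did not, at limma unadjusted p of 0.126 and 0.233. Of the 5 Kcn genes on chromosome 6, which carries Neurod6, 0 lie within 10 Mb of it in the gene order of GRCm38.p6.

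**Figure D4:**
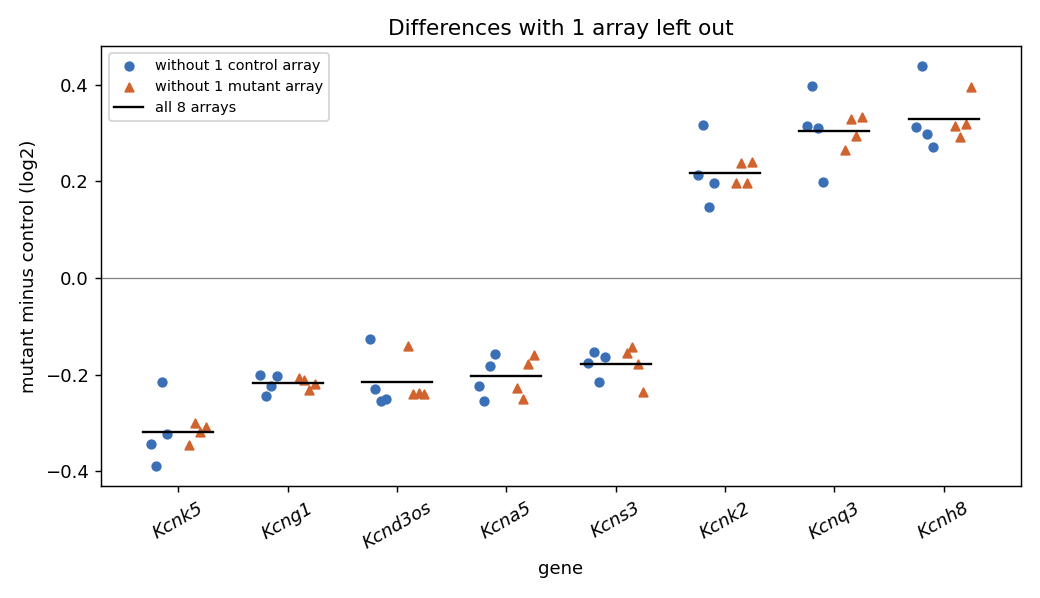
Log2 difference, mutant less control (y axis), of the 8 Kcn genes at an unadjusted p under 0.05 (x axis) over all 8 arrays (black lines) and with 1 control (blue circles) or 1 mutant array (orange triangles) left out, replicates 1 to 4 from left to right. No point crosses 0, and the highest circles of Kcnk2, Kcnq3 and Kcnh8 are the fits without control replicate 2.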

How the data were processed

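The deposited table holds log2 values of 35556 probe sets on 8 Affymetrix Mouse Gene 1.0 ST arrays, as the authors made them. Per the labels, BRB-ArrayTools was used, while background correction, normalization and summarization are not stated there. The log2 scale was read from the values, which run from 0.74 to 13.63, with array medians of 4.94 to 5.01. The values hold no detection calls, so no gene can be called undetected. With 4 arrays a group, their number limits the precision. A probe set's level depends on its probes, so levels of different genes were not ordered.

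Probe sets were named from the platform annotation, with symbols updated to GRCm38.p6 through the Entrez identifier (21698 of 21789 probe sets naming 1 gene). Of the Kcn genes, 3 had more than 1 probe set. Other Kcn genes were not analysed here. Genotype was the only term in limma 3.58.1 (R 4.3.3; lmFit, eBayes, two-sided) over 19938 genes and all 8 arrays, with Benjamini-Hochberg adjustment and a threshold of 0.05. The unadjusted p was used only to count and name genes. The fit was tested on simulated data whose known changes were wider than any in the family, so that smaller changes were not covered. The members, lists and alternatives were chosen with earlier results of these data known. Named were all Kcn genes at an unadjusted p under 0.05, the one of smallest p in each subfamily and a set of textbook cortical, glial and mural members. Protein sequences were not used here. Alternatives were 3 normalizations, 2 filters on dim genes, other priors, weights per array, a replicate block, other uses of several probe sets, sex, a threshold of 0.1 and leaving out each array.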

Additional observations from a re-analysis of the deposited data

Results flagged for a closer look

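In 6 of 78 groups of 4 arrays checked among the named Kcn genes, 1 array stood far from the other 3 by Dixon's 95% critical value. Chance flags about 1 in 20 groups. In controls, Kcnh5 read 9.03 in replicate 4 against 9.49 to 9.58 in the others, Kcnf1 read 7.31 in replicate 4 against 7.51 to 7.54, and Kcnrg read 5.25 in replicate 4 against 5.59 to 5.62. Kcnd3 read 6.44 in control replicate 1 against 6.67 to 6.70. In mutants, Kcnd3os read 5.67 in replicate 1 against 5.96 to 5.97, and Kcnip3 read 9.02 in replicate 3 against 8.91 to 8.92.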

How the results depend on the processing

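No Kcn gene passed limma's adjusted threshold under any of the 22 alternatives, and the median difference of the family stayed within 1 SD between arrays (0.0276) of its value in the 21 that refit it. The count of Kcn genes lower at an unadjusted p under 0.05 was 3 in place of 5 under median centring, cyclic loess, array weights and the replicate block, and 3 to 5 with 1 array left out. The count higher was 1 in place of 3 with the Y-linked covariate and also without mutant replicates 1 and 4, which is nearly the same comparison. It was 2 to 4 with 1 array left out. All genes past the threshold numbered 13, against 5 with the replicate block, 4 with the Y-linked covariate, 2 without mutant replicates 1 and 4, and 3 to 13 with 1 array left out. Same-numbered arrays correlated at -0.012, 0.029, 0.04 and 0.159 (replicates 1 to 4) in their deviations from the group means. Arrays of different numbers correlated at -0.1 to 0.071. Not every array correlated best with its own number, but that of replicate 4 was the highest of all. These values cannot decide whether equal numbers mark paired arrays. The causes of these changes were not tested. Kcna5 drops out under both filters on dim genes and Kcnk5 under the one at the median level.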
